A study of Mus musculus with 3 samples.

Results

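The integrated stress response and serine synthesis genes described here are 9 genes, Atf4, Atf5, Ddit3, Trib3, Chac1, Asns, Psat1, Phgdh and Slc7a11, taken by name and not by their values. All 9 symbols matched a gene in each of the 3 count matrices, among 31054 features. The transcripts were counted in single cells of mouse forelimb buds at embryonic day 9.5. Mutant embryos were Esco2fl/fl;Prrx1-CreTg/0 and control embryos were Esco2fl/fl, so both groups carried floxed Esco2 and the mutants carried the Cre transgene as well. Esco2 encodes a cohesin acetyltransferase, and the Prrx1 promoter is known, as background, to drive Cre in limb bud mesenchyme and not in surface ectoderm or blood. Cre activity in each cell class was not measured here. There were 2 mutant libraries and 1 control library. Per the labels, a library joined 3 pooled samples with 6 limb buds, from 2 male samples and 1 female sample.

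The integrated stress response begins with kinases that sense amino acid shortage, unfolded protein, viral RNA or lack of heme and phosphorylate a translation initiation factor. Bulk translation then falls while Atf4 mRNA is translated more, so the level of the Atf4 transcript is not a measure of the protein. ATF4 raises transcription of genes for amino acid supply (Asns, Psat1, Phgdh, Slc7a11), of other transcription factors (Atf5, Ddit3) and of genes that limit the response or act late in it (Trib3, Chac1). In erythroid cells the heme-regulated kinase HRI, encoded by Eif2ak1, is a main sensor.

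The sequence bound by ATF4 with a C/EBP partner, TGATGNAA, is shown in its promoter context because it is the feature by which several of these genes are known as ATF4 targets. RefSeq promoter windows of GRCm38.p6, from 250 bases before to 50 bases after a start of transcription, were found for all 9 genes. The element was searched on both strands, and windows of 4 of the 9 genes held it. These were 4 of their 11 windows, or 36.4%, against 3.97% of 32851 windows of all genes. The higher share is no finding, because several of these genes are known by this element. The related sequence TGGTGCAA was in 2 of the 11 windows, of Trib3 and Psat1, and in 0.536% of all windows. The 4 windows with the element follow, each 5′ to 3′ on the strand of the gene, in lower case with matches of either sequence in capitals.
Asns, chr6:7693160-7693459, minus strand: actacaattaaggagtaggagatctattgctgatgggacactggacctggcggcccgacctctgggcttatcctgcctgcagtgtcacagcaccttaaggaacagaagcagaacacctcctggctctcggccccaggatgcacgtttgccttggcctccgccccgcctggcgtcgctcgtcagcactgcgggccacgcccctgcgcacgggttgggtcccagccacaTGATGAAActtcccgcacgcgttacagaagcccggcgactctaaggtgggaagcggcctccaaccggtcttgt
Slc7a11, chr3:50443564-50443863, minus strand: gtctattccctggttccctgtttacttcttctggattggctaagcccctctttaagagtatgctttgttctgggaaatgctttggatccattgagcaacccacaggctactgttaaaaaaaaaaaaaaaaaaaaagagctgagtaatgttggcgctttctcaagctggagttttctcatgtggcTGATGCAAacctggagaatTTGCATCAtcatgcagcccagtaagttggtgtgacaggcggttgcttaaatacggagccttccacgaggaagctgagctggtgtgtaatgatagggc
Chac1, chr2:119350992-119351291, plus strand: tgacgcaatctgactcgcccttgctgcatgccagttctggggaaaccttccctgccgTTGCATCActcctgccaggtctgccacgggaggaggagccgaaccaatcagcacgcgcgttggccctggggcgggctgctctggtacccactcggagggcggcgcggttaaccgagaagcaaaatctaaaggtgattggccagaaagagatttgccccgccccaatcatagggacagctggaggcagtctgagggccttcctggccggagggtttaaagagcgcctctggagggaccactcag
Trib3, chr2:152344011-152344310, minus strand: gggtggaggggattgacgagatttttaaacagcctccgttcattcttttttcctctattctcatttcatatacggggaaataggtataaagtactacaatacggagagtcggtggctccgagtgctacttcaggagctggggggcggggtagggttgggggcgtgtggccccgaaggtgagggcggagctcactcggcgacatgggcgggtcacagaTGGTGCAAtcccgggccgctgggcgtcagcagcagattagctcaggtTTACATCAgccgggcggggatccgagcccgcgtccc
In Asns the match began 23 bases before the start of transcription. Slc7a11 had a pair of matches, 66 bases before the start and, on the opposite strand, 47 bases before it. The match of Chac1 lay 193 bases before the start on the opposite strand. Trib3 had the related sequence 33 bases before the start, and the element on the opposite strand 14 bases after it. These are matches of letters in a window and not measured binding.

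Cells were assigned to classes by marker genes, none of them among the 9. Of the kept cells, 68.3% in mutant 1, 68.8% in mutant 2 and 52.9% in control 1 fell into 1 of 5 classes: limb mesenchyme, surface ectoderm, endothelium, primitive erythroid cells and flank mesoderm. The libraries are labelled as mesenchymal, and gated mesenchyme was 29.0%, 42.5% and 20.9% of kept cells in mutant 1, mutant 2 and control 1. It had 1041, 1993 and 846 cells, and the smallest class, flank, had 104, 73 and 118. Each pair of libraries shared 18 or 19 cell barcodes. Esco2 stood at 23.5 CPM (UMIs scaled to a common total per sum) in mesenchyme of mutant 1 and 21.8 CPM in mutant 2, against 31.7 CPM in control 1. Counts come from transcript 3′ ends. The sources used here do not say which part of Esco2 was deleted, so the deletion is not checked by this level. The flank class was mixed. In mutant 1, mutant 2 and control 1 its flank markers summed to 741, 713 and 671 CPM and limb mesenchyme markers to 1123, 725 and 1005 CPM. Ectoderm markers summed to 599, 669 and 581 CPM and coelomic epithelium markers to 275, 317 and 219 CPM. The part of this mixture in flank values was not tested.

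Levels were first compared between cell classes. UMIs were summed per library and class, which gave 15 sums. Levels are given as CPM scaled with TMM factors, which set the middle of all genes equal between sums, and levels of different genes are not compared. Differences were tested with edgeR's quasi-likelihood test on 10582 genes, with a term for each library. Genes with a p under 0.05 after Benjamini-Hochberg adjustment over all genes are spoken of as called. Chac1 was under the filter of a mean of 5 CPM over the 15 sums and was not tested. Trib3 averaged 91.1 CPM in erythroid cells and between 0.454 and 2.02 CPM in each other class, so it passed the filter only through erythroid cells. Slc7a11 averaged 52.3 CPM in ectoderm and between 0.918 and 5.03 CPM in each other class, and passed only through ectoderm. Those classes had to be high for the genes to be tested, so the class differences of Trib3 and Slc7a11 are descriptions, also where they enter a count below.

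**Figure D1:**
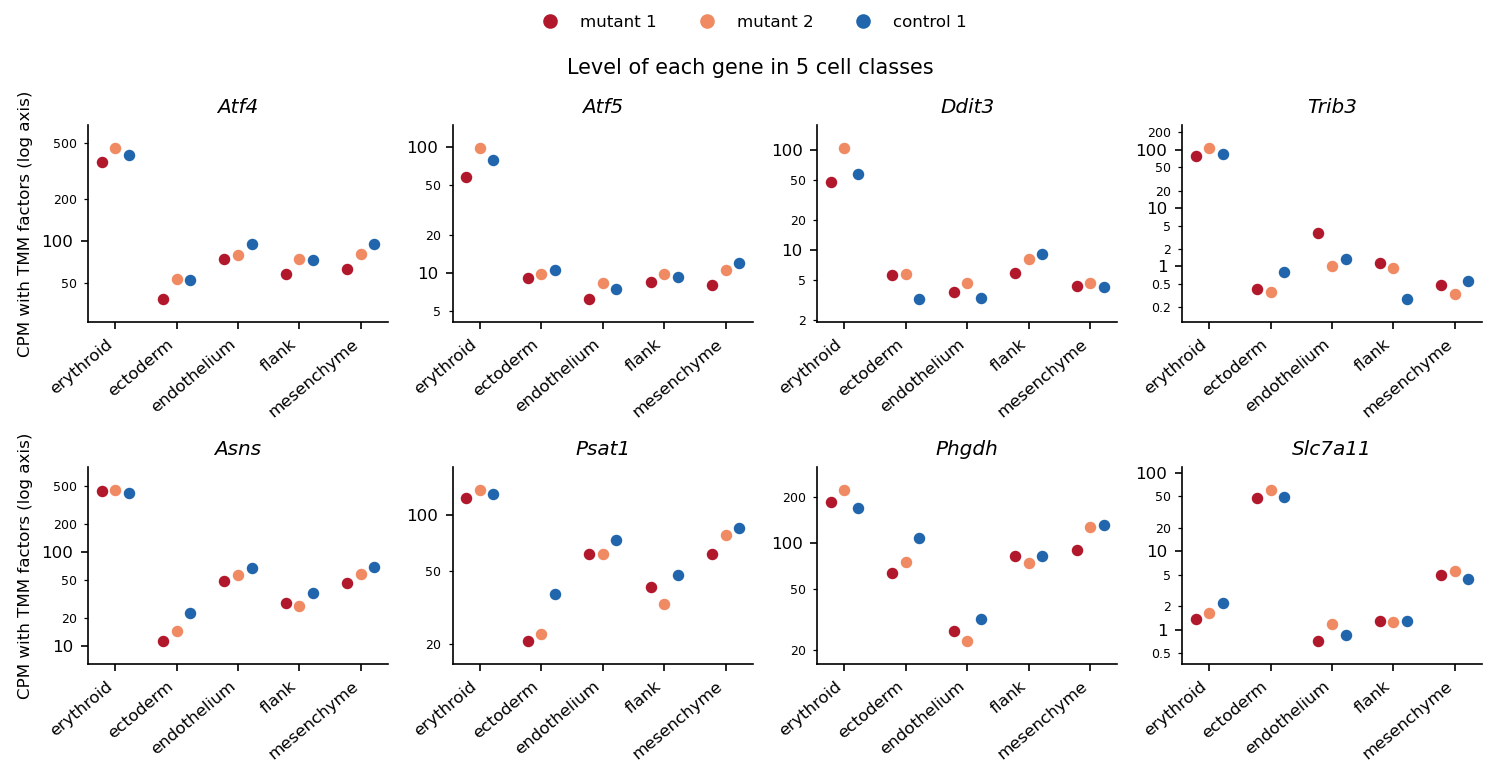
Level of the genes in 5 cell classes of mutant 1, mutant 2 and control 1, as CPM with TMM factors on a log axis, 1 point per library. Slc7a11 was highest in ectoderm and the other tested genes in erythroid cells; for Psat1 and Phgdh the erythroid position turned with no scaling factors.

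On the TMM scale 7 of the 8 tested genes were called higher in primitive erythroid cells than in mesenchyme and Slc7a11 was lower; of all genes tested, 39.3% were called higher and 42.2% lower. The 7 include Trib3, tested only because erythroid cells were high. Haemoglobin took 39.4%, 41.4% and 36.0% of erythroid UMIs in mutant 1, mutant 2 and control 1, so the scale weighs on this class. With no scaling factors the median of all genes moved by -1.29 on the log2 scale, and by -0.57 when haemoglobin UMIs were also left out of the totals. Of the called genes 48.2% were higher with TMM factors, 8.19% with none, and 24.6% with none and haemoglobin left out.

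Trib3 (chromosome 2, 152337422 to 152344032, minus strand of GRCm38), which encodes a pseudokinase that restrains ATF4, was read mostly in erythroid cells. Erythroid cells held 78.9 CPM in mutant 1, 109 CPM in mutant 2 and 85.6 CPM in control 1, against 0.479, 0.327 and 0.556 CPM in mesenchyme of the same libraries. Each erythroid sum was far above each mesenchymal one. The log2 fold was 7.72 (95% interval 6.90 to 8.54), and 6.42 with no scaling factors. After each cell was thinned to 10000 UMIs, 29.7%, 36.0% and 34.7% of erythroid cells of mutant 1, mutant 2 and control 1 had a Trib3 UMI, against 0.903%, 0.314% and 0.258% of mesenchyme cells. Without thinning the shares were 73.8%, 70.2% and 84.3% in erythroid cells and 2.69%, 1.91% and 3.55% in mesenchyme.

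Ddit3 (chromosome 10, 127290774 to 127296288, plus strand) encodes CHOP, a transcription factor of prolonged stress. It stood at 47.7 CPM in mutant 1, 105 CPM in mutant 2 and 57.7 CPM in control 1 in erythroid cells, against 4.41, 4.67 and 4.31 CPM in mesenchyme, a log2 fold of 3.92 (95% interval 3.45 to 4.38, adjusted p = 1.02e-09). Mutant 2 was the high erythroid library, and mutant 1 lay below the control. Atf4 itself (chromosome 15, 80255184 to 80257541, plus strand) had 366 CPM in mutant 1, 464 CPM in mutant 2 and 409 CPM in control 1 in erythroid cells, against 62.5, 80.1 and 94.2 CPM in mesenchyme, a log2 fold of 2.40 (95% interval 2.20 to 2.61, adjusted p = 4.08e-11). Atf5 (chromosome 7, 44812256 to 44816658, minus strand), a related factor that is also controlled in translation, had 57.8, 99.2 and 78.5 CPM in erythroid cells of mutant 1, mutant 2 and control 1, against 8.08, 10.6 and 11.9 CPM in mesenchyme. Its log2 fold was 2.93 (95% interval 2.67 to 3.19, adjusted p = 5.32e-11). For these 3 genes the erythroid sums lay above the mesenchymal ones, in a comparison where 39.3% of all genes were called higher.

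Among the enzymes, Asns (chromosome 6, 7675169 to 7693254, minus strand), which makes asparagine, had 444 CPM in mutant 1, 462 CPM in mutant 2 and 423 CPM in control 1 in erythroid cells. Mesenchyme had 46.7, 58.0 and 68.4 CPM in the same libraries. The log2 fold was 2.97 (95% interval 2.66 to 3.28, adjusted p = 2.58e-10), a 7.83-fold difference on the TMM scale, and 1.67 on the log2 scale with no scaling factors. An Asns UMI was found in 87.9%, 84.0% and 85.2% of thinned erythroid cells of mutant 1, mutant 2 and control 1, and in 36.0%, 43.6% and 45.7% of thinned mesenchyme cells. Ddit3, Atf4, Atf5 and Asns were called higher in erythroid cells on each scale tried.

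The serine synthesis enzymes depended on the scale. Phgdh (chromosome 3, 98313170 to 98339990, minus strand) encodes the enzyme of the first step from glycolysis to serine, and Psat1 (chromosome 19, 15904678 to 15947337, minus strand) that of the next. On the TMM scale Phgdh had 185 CPM in mutant 1, 223 CPM in mutant 2 and 169 CPM in control 1 in erythroid cells, against 89.7, 128 and 132 CPM in mesenchyme, a log2 fold of 0.74 (95% interval 0.38 to 1.11, adjusted p = 0.000985). Psat1 had 123, 137 and 129 CPM in erythroid cells of mutant 1, mutant 2 and control 1, against 61.6, 78.0 and 84.8 CPM in mesenchyme, a log2 fold of 0.81 (95% interval 0.52 to 1.09, adjusted p = 7.35e-05). With no scaling factors the signs turned, to -0.56 for Phgdh (adjusted p = 0.00185) and -0.49 for Psat1 (adjusted p = 0.00109). With haemoglobin also left out of the totals neither was called, at 0.17 (adjusted p = 0.314) and 0.23 (adjusted p = 0.0923).

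Slc7a11 (chromosome 3, 49892526 to 50443614, minus strand) encodes the cystine importer xCT, which supplies cysteine for glutathione, and its pattern ran against the others. Ectoderm held 47.5 CPM in mutant 1, 60.6 CPM in mutant 2 and 48.7 CPM in control 1, against 5.03, 5.65 and 4.41 CPM in mesenchyme. The difference was 10.3-fold (95% interval 8.49 to 12.6), for a gene tested only because ectoderm was high. Erythroid cells held 1.39, 1.64 and 2.16 CPM, flank cells 1.31, 1.26 and 1.28 CPM and endothelium 0.720, 1.18 and 0.858 CPM in mutant 1, mutant 2 and control 1. These 3 classes lay below mesenchyme, with log2 folds of -1.51, -1.93 and -2.47, called lower in a fit that Slc7a11 entered only through ectoderm. In thinned cells, 36.0%, 43.2% and 36.8% of ectoderm cells of mutant 1, mutant 2 and control 1 had an Slc7a11 UMI, against 6.62%, 6.45% and 4.38% of mesenchyme cells and 0.504%, 0.450% and 0.765% of erythroid cells. The summed level of 15 ectoderm markers was 3789, 3347 and 3409 CPM in ectoderm of mutant 1, mutant 2 and control 1 and 76.2, 80.7 and 63.3 CPM in mesenchyme, and the part of such RNA in the mesenchymal Slc7a11 level was not tested.

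In ectoderm the biosynthetic genes were otherwise lower. Against mesenchyme 1 of 8 genes was called higher, where 29.3% of all genes were, and 4 were called lower, where 31.9% were. With no scaling factors the median of all genes moved by 0.102, and 57.6% of called genes were higher in ectoderm in place of 47.9%. Asns had 11.3 CPM in mutant 1, 14.5 CPM in mutant 2 and 22.4 CPM in control 1 in ectoderm, with a log2 fold of -1.85 (95% interval -2.18 to -1.53, adjusted p = 2.89e-07). Psat1 had 20.9, 22.9 and 37.5 CPM in these libraries, with a log2 fold of -1.48 (adjusted p = 1.55e-06), and Atf4 had 38.2, 53.1 and 52.4 CPM, with a log2 fold of -0.72 (adjusted p = 2.69e-05). These 3 genes were lower in ectoderm than in mesenchyme of the same library in all 3 libraries. Phgdh had 63.6, 74.5 and 108 CPM, and its log2 fold of -0.51 (adjusted p = 0.0194) was not called without mutant 1 (-0.51, adjusted p = 0.0631) or without mutant 2 (-0.34, adjusted p = 0.156). Atf5, Ddit3 and Trib3 had log2 folds of -0.03, 0.13 and 0.34 that were not called.

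In endothelium Phgdh and Psat1 stood apart from each other. Phgdh had 26.7 CPM in mutant 1, 22.8 CPM in mutant 2 and 31.5 CPM in control 1, a log2 fold of -2.10 against mesenchyme (95% interval -2.48 to -1.72, adjusted p = 1.84e-07). Psat1 had 61.2, 61.5 and 72.8 CPM, with a log2 fold of -0.20 that was not called (95% interval -0.48 to 0.09, adjusted p = 0.213), though with no scaling factors it was called lower, at -0.36 (adjusted p = 0.0152). Asns and Atf4 had log2 folds of 0.02 (95% interval -0.27 to 0.31) and 0.08 (95% interval -0.12 to 0.28) and were not called. In all, 1 of 8 genes, Trib3, was called higher in endothelium, where 32.6% of all genes were, and 3 lower, where 32.2% were, Slc7a11 among them. With no scaling factors the median of all genes moved by -0.161, and 37% of called genes were higher in place of 50.3%. Atf5 was among the lower ones, at -0.47 (adjusted p = 0.00341), a call lost without the control (-0.36, adjusted p = 0.0798).

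Trib3 in endothelium was tested only because of its erythroid level, and 1 endothelial library stood above the others. Endothelium held 3.73 CPM in mutant 1, 1.02 CPM in mutant 2 and 1.31 CPM in control 1, from 109, 26 and 64 UMIs in mutant 1, mutant 2 and control 1. The log2 fold over mesenchyme was 2.14 (95% interval 1.24 to 3.05, adjusted p = 0.000518), and 1.51 without mutant 1 (adjusted p = 0.00659). Summed erythroid markers in endothelium were 462, 488 and 442 CPM in mutant 1, mutant 2 and control 1, and 7 somite markers 68.2, 6.04 and 16.2 CPM. Cdkn1a stood at 22.2, 7.85 and 9.10 CPM in endothelium of these libraries with no scaling factors. Somite markers and Cdkn1a were highest in mutant 1, as Trib3 was, and their part in its level was not tested.

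In flank mesoderm 1 of 8 genes was called higher than in mesenchyme, where 20.2% of all genes were, and 4 lower, where 17.3% were. Asns had 28.6 CPM in mutant 1, 26.9 CPM in mutant 2 and 36.2 CPM in control 1, a log2 fold of -0.90 (adjusted p = 0.000528). Psat1 had 41.0, 32.9 and 47.4 CPM, a log2 fold of -0.87 (adjusted p = 0.000494). Phgdh (-0.53, adjusted p = 0.0309) and Slc7a11 were the other lower genes. Ddit3 was the higher one, with 5.88, 8.22 and 9.21 CPM and a log2 fold of 0.88 (adjusted p = 0.0163). The calls of Ddit3 and Phgdh were lost without the control (adjusted p = 0.200 and 0.0914), which left 3 genes called, and that of Phgdh was also lost without mutant 2 (-0.39, adjusted p = 0.176).

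Chac1 (chromosome 2, 119351229 to 119354381, plus strand), which encodes an enzyme that degrades glutathione, had at most 51 UMIs in any sum. Endothelium held 0.621, 0.965 and 1.11 CPM in mutant 1, mutant 2 and control 1, and mesenchyme 0.459, 0.125 and 0.100 CPM from 23, 13 and 5 UMIs, with no scaling factors. In erythroid cells, where Trib3 was highest, Chac1 had 1, 4 and 8 UMIs in these libraries, or 0.0243, 0.148 and 0.201 CPM.

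By mean scaled level, Atf4 and Asns shared the order erythroid, endothelium, mesenchyme, flank and ectoderm. For both, endothelium and mesenchyme did not differ in the test, and with no scaling factors that pair changed places. Across the 15 sums, which share libraries and classes, log2 CPM of Asns had a Pearson r of 0.97 with Atf4, 0.95 with Psat1, 0.89 with Trib3, 0.50 with Phgdh and -0.53 with Slc7a11. The genes most like Asns among 10574 compared were Tcp1, Yars, Dnttip2, Nop10 and Cinp, with r between 0.992 and 0.994. Among the genes most like the mean of the tested genes were 1190007I07Rik, Nfs1, Orc2 and Slc3a2, with r between 0.989 and 0.994.

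**Figure D2:**
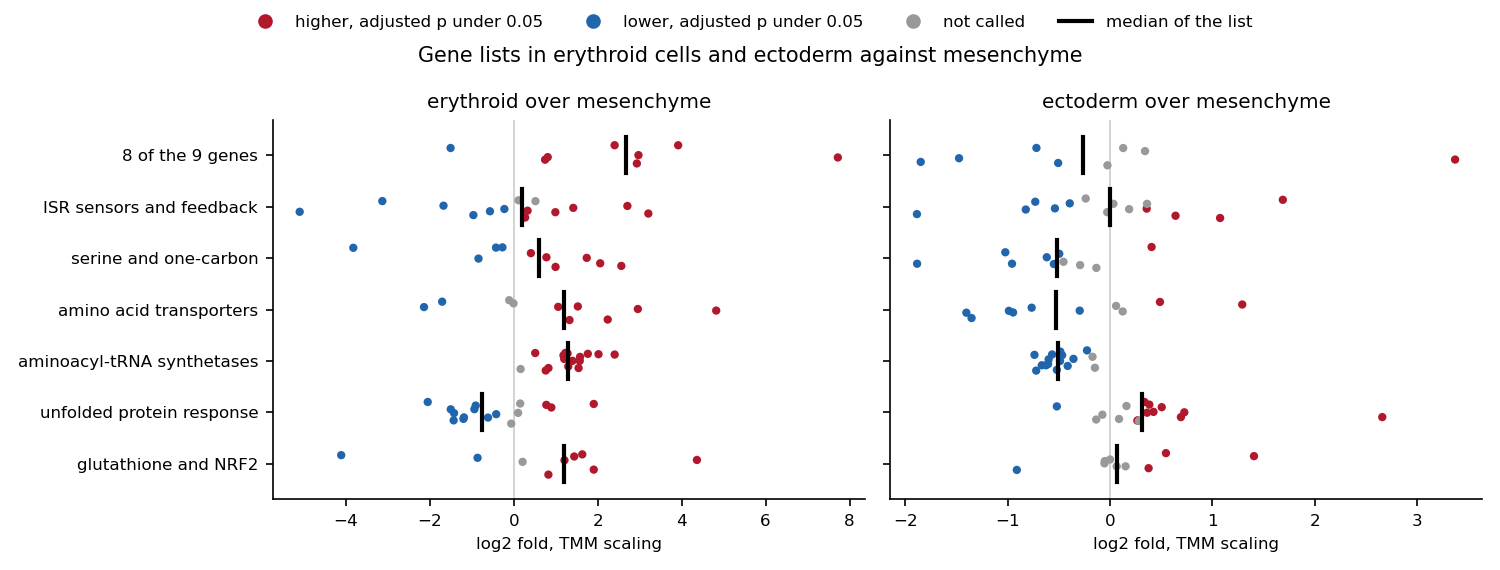
Log2 fold on the TMM scale in erythroid cells over mesenchyme (left) and ectoderm over mesenchyme (right), 1 point per tested gene of each pathway list, with the list's median as a bar. The aminoacyl-tRNA synthetases stood at a median of 1.29 in erythroid cells and -0.50 in ectoderm; with no scaling factors the median of all genes in erythroid cells moved by -1.29, and small folds there turn.

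Other genes of the pathway were set against the same background. In erythroid cells 15 of 16 aminoacyl-tRNA synthetases, which load amino acids on tRNAs, were higher than in mesenchyme and 0 were lower, where 39.3% of all genes were higher and 42.2% lower, with a median log2 fold of 1.29 against -0.04 for all genes. The lowest p values among them belonged to Nars (2.40), Lars (1.76) and Sars (2.02). Genes of serine and one-carbon metabolism had 6 higher and 4 lower of 10, and the lower count was near the share of all genes. Psph, the last enzyme of serine synthesis, was at 2.56, Mthfd2 at 2.06 and Shmt2 at 1.74, while Gldc, of the glycine cleavage system, was at -3.82. Amino acid transporters had 6 higher and 2 lower of 10, led by Slc43a1 (2.95), Slc6a9 (4.82) and Slc7a1 (2.24). Within each other class only 9 of the 11 transporters passed the filter, so one high in erythroid cells, such as Slc6a9, could be tested through them. Its value is a description, also in the count. Against the shift of -1.29 with no scaling factors, the median of the synthetases is of the same size.

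Sensors and feedback genes had 6 higher and 6 lower of 14 in erythroid cells, near the shares of all genes (39.3% and 42.2%), so the counts are no result about this list. Eif2ak1, which encodes HRI, was at 2.71 (adjusted p = 4.50e-13). Ppp1r15a, whose product helps to dephosphorylate the initiation factor, was at 3.20, and Eif4ebp1, for a translation repressor, at 1.42. Ddit4 (-3.13), Gpt2 (-0.96) and Eif2ak4 (-0.57), the last encoding the amino acid sensor GCN2, were lower. The unfolded protein response list, of the endoplasmic reticulum branch, had 3 higher and 10 lower of 16, where 42.2% of all genes were lower, with a median of -0.76, and Pdia4 (-2.05), Calr (-1.42) and Pdia6 (-1.43) led the lower ones.

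In ectoderm 29.3% of all genes were called higher than in mesenchyme and 31.9% lower. There 14 of 16 aminoacyl-tRNA synthetases were lower and 0 higher, with a median of -0.50, led by Yars (-0.72), Iars (-0.63) and Hars (-0.67). Serine and one-carbon genes had 1 higher and 6 lower of 10, with Mthfd2 (-1.89) and Shmt2 (-1.02) among the lower ones. The unfolded protein response list had 9 higher and 1 lower of 16, led by Ern1 (2.66), Dnajb9 (0.73) and Pdia4 (0.69). Beside the high Slc7a11 of ectoderm, Gclm (1.41), Gss (0.55) and Txnrd1 (0.38) of the glutathione list were higher and Gclc (-0.91) was lower, 3 and 1 of 9, with the higher count near the share of all genes.

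Whether loss of Esco2 moved these genes was asked within each class. The 3 sums of a class were fitted together, with CPM scaled within the class. With 1 control library the spread comes from the 2 mutants, and library and genotype cannot be told apart. In summed cells, fewer cells with a transcript and less transcript per cell also cannot be told apart. No source says that libraries came from separate litters, so p-values here reflect only how these libraries vary.

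**Figure D3:**
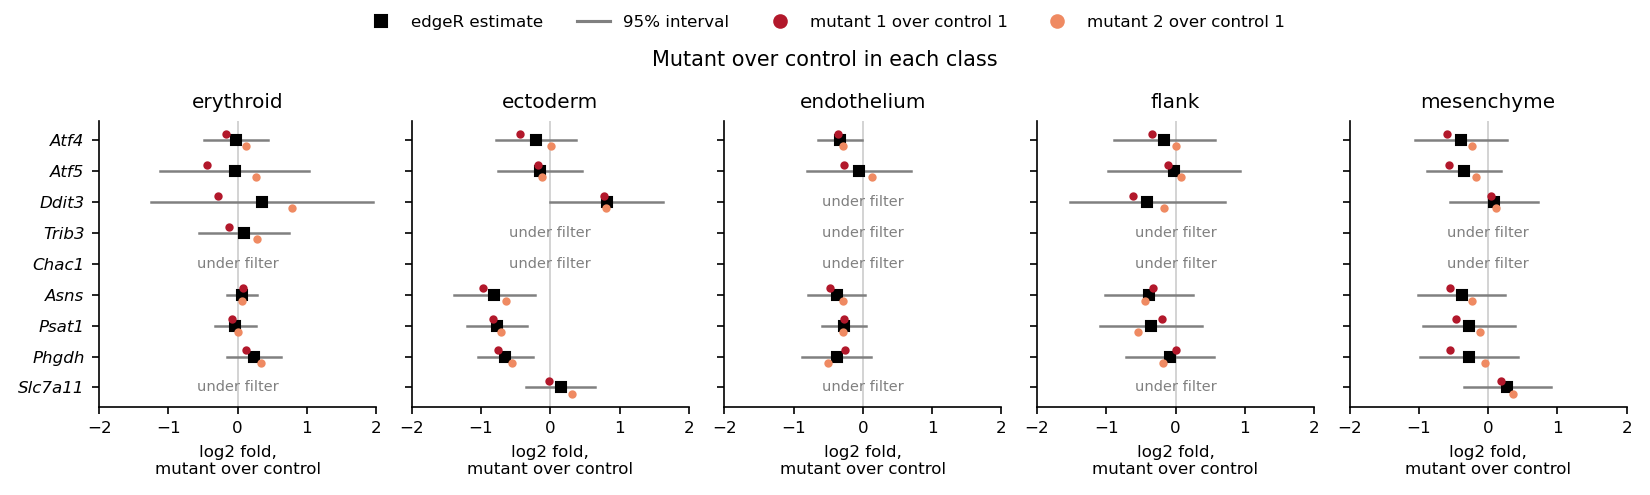
Log2 fold of mutant over control for each tested gene in 5 classes, with the edgeR estimate, its 95% interval and each mutant library over the control as points. None of the shown estimates, 0 in each class, had an adjusted p under 0.05.

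In mesenchyme 0 of the 7 tested genes were called, against 1.41% of all genes. Of 10095 genes, 95 were higher and 47 lower, and 0 were called when the prior degrees of freedom of the ectoderm fit were used. Cdkn1a, a p53 target that encodes the cell cycle inhibitor p21, had 65.5 CPM in mutant 1 and 69.2 CPM in mutant 2, against 1.73 CPM in control 1, a log2 fold of 5.28. The control lay under the filter of 5 CPM, so Cdkn1a was tested only because the mutants were high. Its change is a description, also in the next count. Of 25 tested p53 targets 11 were called higher and 0 lower. Targets low in control 1, such as Sesn2 below, could pass the filter in the same way, so this count is a description. The 7 genes lay between -0.40 and 0.28. The median mitochondrial share of the mesenchyme cells was 3.05%, 2.08% and 1.75% in mutant 1, mutant 2 and control 1, highest in mutant 1, where Atf4, Asns and Atf5 were lowest. Mesenchyme barcodes left out for a mitochondrial share of 10% or more held 19.3, 20.9 and 17.9 CPM of Asns in these libraries, against 58.3, 68.0 and 78.9 CPM in the cells used, with no scaling factors. The part of this share in the values was not tested.

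Atf4 had 75.2 CPM in mutant 1 and 96.4 CPM in mutant 2, against 113 CPM in control 1, a log2 fold of -0.40 (95% interval -1.06 to 0.27). Asns had 56.1 and 69.8 CPM in the mutants, against 82.2 CPM in control 1, a log2 fold of -0.38 (95% interval -1.01 to 0.24). Atf5 had 9.72 and 12.7 CPM in the mutants, against 14.3 CPM in control 1, at -0.35. For these 3 genes both mutants were below the control, and mutant 1 was the lowest. Psat1 had 74.2 and 93.8 CPM in the mutants, against 102 CPM in control 1, at -0.28. Phgdh had 108 and 154 CPM in the mutants, against 158 CPM in control 1, also at -0.28, and here mutant 2 lay close to the control. Ddit3 had 5.30 and 5.62 CPM in the mutants, against 5.18 CPM in control 1, at 0.08. With no scaling factors control 1 held 4.97 CPM of Ddit3, under the filter of 5 CPM, against 5.51 and 5.48 CPM in the mutants. Ddit3 was thus tested only because the mutants were higher, and its value is a description, also among the 7. Slc7a11 had 6.05 and 6.80 CPM in the mutants, against 5.30 CPM in control 1, at 0.28. The adjusted p of edgeR's test was 1.00 for each of the 7, and the intervals of Atf4 and Asns still allow a decrease of about 1 on the log2 scale.

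Genes of the pathway lists outside the 9 did pass in mesenchyme. Sesn2, for a sestrin that restrains mTORC1 and a target of both p53 and ATF4, had 13.2 CPM in mutant 1 and 12.9 CPM in mutant 2, against 4.51 CPM in control 1, a log2 fold of 1.53. The control lay under the filter of 5 CPM, so Sesn2 was tested only because the mutants were high. Its change is a description, also where it enters a count. Ddit4, for another mTORC1 inhibitor, had 33.6 and 15.0 CPM in the mutants, against 10.4 CPM in control 1, at 1.23, and mutant 1 was the high library. The mutants differed from each other more than mutant 2 did from the control. The p-values of this fit rest on a spread that edgeR took as shared by all genes, and not on that of the single gene. Gldc had 21.9 and 24.0 CPM in the mutants, against 11.4 CPM in control 1, at 1.02 (adjusted p = 0.0321). Of the 16 aminoacyl-tRNA synthetases 0 were called, and 0 had a log2 fold above 0, with a median of -0.18, where 48.1% of all genes were above 0. The unfolded protein response list ran the other way, with 14 of 16 above 0, a median of 0.29 and 0 called. Neither pattern was particular to mesenchyme. In flank 14 of the 16 unfolded protein response genes were also above 0, with a median of 0.33, and 10, 7 and 7 were in ectoderm, endothelium and erythroid cells. Of the synthetases 0 were also above 0 in endothelium, with a median of -0.17, while 3 were in flank and 7 in erythroid cells. In mesenchyme sensors and feedback genes had 10 of 13 above 0 and a median of 0.20. Of them 2 were called higher, Sesn2 among them, where 1.41% of all genes were called. The immediate early genes Fos (1.21) and Egr1 (1.07), which rise when tissue is dissociated, were also called higher, and their part in these values was not tested.

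Ectoderm is a class in which this Cre is not known to be active, and its activity there was not measured. Psat1 had 27.1 CPM in mutant 1 and 29.2 CPM in mutant 2, against 48.1 CPM in control 1, a log2 fold of -0.77 (95% interval -1.21 to -0.34, unadjusted p = 0.00606 in edgeR's test). Asns had 14.7 and 18.5 CPM in the mutants, against 28.8 CPM in control 1, at -0.81 (unadjusted p = 0.0164). Phgdh had 82.8 and 95.1 CPM in the mutants, against 139 CPM in control 1, at -0.65 (unadjusted p = 0.00867). In these 3 genes both mutants lay below the control and close to each other. Ddit3 ran the other way, with 7.33 and 7.46 CPM in the mutants, against 4.20 CPM in control 1, at 0.82. The control lay under the filter of 5 CPM, so Ddit3 was tested here only because the mutants were high. Its value in ectoderm is a description. In the same sums 6 coelomic epithelium markers summed to 83.4, 58.1 and 122 CPM and 8 neural crest and glia markers to 77.5, 109.5 and 51.3 CPM in mutant 1, mutant 2 and control 1. Median depth was 33846, 25491 and 49382 UMIs per ectoderm cell in these libraries. The markers and the depth separate both mutants from the control as the 4 genes do, and their part in these values was not tested.

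These 4 did not pass the adjustment over 10614 genes, with adjusted p between 0.518 and 0.539. The edgeR fit called 0 genes in ectoderm, 0% of those tested, while 979 had an unadjusted p under 0.05, 4.74% of all genes higher and 4.48% lower, and DESeq2 called 23. With no filter on low counts Psat1, Phgdh and Asns were called lower (adjusted p = 0.00934, 0.00797 and 0.0194). That setting raised the calls over all genes in ectoderm from 0 to the number given below under processing, so it is not particular to these genes. Atf4 (-0.20), Atf5 (-0.15) and Slc7a11 (0.15) had adjusted p values of at least 0.783. Of the 16 aminoacyl-tRNA synthetases, 0 were above 0 in this class, with a median of -0.33, where 51.6% of all genes were.

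The change in mesenchyme was set against that in ectoderm by an interaction term on the 6 sums. It called 163 genes, 1.54% of 10591, and 0 of the 7, whose adjusted p was 1.00 each. The difference of log2 folds, mesenchyme minus ectoderm, was -0.76 for Ddit3 (95% interval -1.57 to 0.05), 0.46 for Psat1 (95% interval -0.13 to 1.05) and 0.40 for Asns (95% interval -0.20 to 1.00). The changes of Psat1 and Asns in these classes were therefore not shown to differ. With no scaling factors Ddit3 had 7.31 and 7.57 CPM in ectoderm of mutant 1 and mutant 2. In the other sums it had between 4.03 and 5.51 CPM. Ddit3 passed the filter only through ectoderm of the mutants, so its difference is a description, also among the 7. For Sesn2 (1.91, adjusted p = 7.55e-06) and Gldc (1.63, adjusted p = 3.13e-05) the change was more positive in mesenchyme. The p-values of the interaction also rest on a spread that edgeR took as shared by all genes.

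Endothelium, erythroid cells and flank mesoderm had 0 genes called by edgeR, 0% of those tested, with 657, 175 and 170 genes at an unadjusted p under 0.05, and DESeq2 called 46, 22 and 1. In endothelium Asns had 53.2 CPM in mutant 1 and 60.9 CPM in mutant 2, against 74.2 CPM in control 1, at -0.38, and Atf4 79.8 and 84.1 CPM in the mutants, against 103 CPM in control 1, at -0.33 (adjusted p = 0.710). All 5 tested genes had estimates below 0 there, where 51.2% of all genes were above 0. The genes under the filter did not all share this direction. With no scaling factors Ddit3 had 4.09 and 4.99 CPM in endothelium of mutant 1 and mutant 2, against 3.56 CPM in control 1. For Trib3 and Slc7a11 the mutants lay on either side of the control, and Chac1 was lower in both. In erythroid cells, where levels were highest, Asns had 222 CPM in mutant 1 and 220.1 CPM in mutant 2, against 211 CPM in control 1, a log2 fold of 0.06 (95% interval -0.15 to 0.28). Trib3 had 39.4 and 51.9 CPM in the mutants, against 42.8 CPM in control 1, at 0.09 (95% interval -0.56 to 0.74), and Ddit3 had 23.8 and 49.9 CPM in the mutants, against 28.9 CPM in control 1, at 0.35. For Trib3 and Ddit3 the mutants lay on either side of the control. In flank mesoderm Asns (-0.38), Psat1 (-0.36) and Ddit3 (-0.41) were below the control in both mutants and were not called. The same control library stands on the other side of each of these comparisons.

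The last comparison set mutant mesenchyme cells with Cdkn1a transcripts beside cells of the same library without them. Cells with at least 1 Cdkn1a UMI numbered 187, and cells without 854, in mutant 1, and 370 and 1623 in mutant 2, with 17 and 829 in control 1. Median depth was 49813 UMIs in cells with and 35446.5 in cells without in mutant 1, and 54722.5 and 52452 in mutant 2. The 4 sums of the mutants were fitted with a term for each library. The p-values reflect only how these sums vary, and the intervals rest on a spread that edgeR took as shared by all genes.

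**Figure D4:**
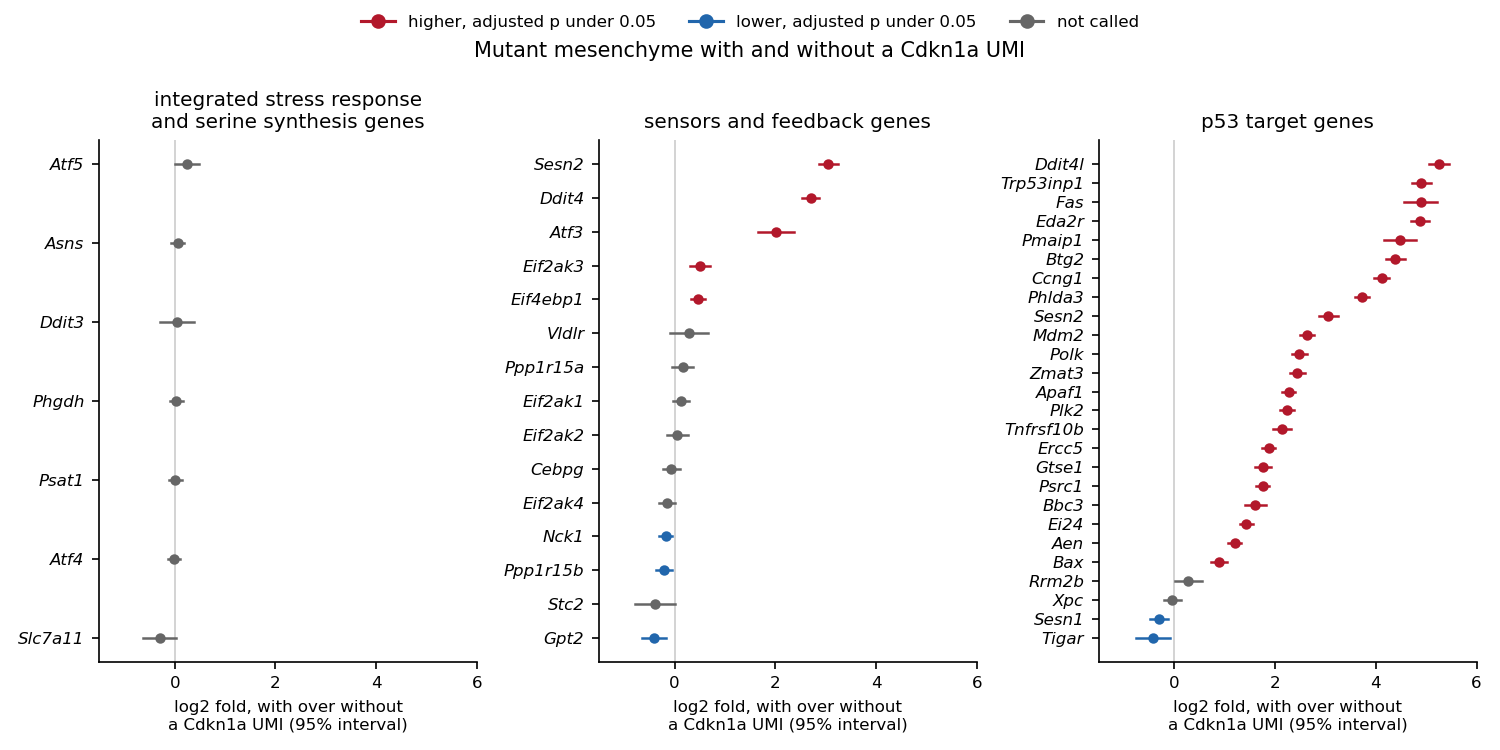
Log2 fold with 95% interval in mutant mesenchyme cells with over without a Cdkn1a UMI, for the tested genes of the 9 (left), sensors and feedback genes (middle) and p53 targets other than Cdkn1a (right). The 7 tested genes lay between -0.30 and 0.25, while p53 targets other than Cdkn1a had a median of 2.25. That median is a description, because targets could pass the filter through cells with a UMI.

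The split called 1526 genes higher and 1338 lower, 28% of 10227, and with the prior degrees of freedom of the ectoderm fit 911. Of the 7 tested genes 0 were called. Of 26 tested p53 targets other than Cdkn1a, 22 were higher and 2, Sesn1 (-0.30) and Tigar (-0.43), lower, with a median log2 fold of 2.25. With Cdkn1a, 27 targets were tested here and 25 in mutant against control mesenchyme. Targets low in cells without a UMI could pass the filter through cells with one. How many did so was not counted, so this count and median are descriptions.

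Asns had 59.1 CPM with and 56.1 CPM without in mutant 1, and 71.3 CPM with and 69.0 CPM without in mutant 2. The log2 fold was 0.06 (95% interval -0.07 to 0.19). Atf4 had 78.0 CPM with and 75.5 CPM without in mutant 1, and 92.5 CPM with and 96.7 CPM without in mutant 2, at -0.01 (95% interval -0.14 to 0.11). Neither gene differed beyond the gap between the libraries. Psat1 had 76.6 CPM with and 74.5 CPM without in mutant 1, and 92.9 CPM with and 93.4 CPM without in mutant 2, at 0.01 (95% interval -0.11 to 0.14), and Phgdh had 121 CPM with and 106 CPM without in mutant 1, and 145 CPM with and 155 CPM without in mutant 2, at 0.03 (95% interval -0.10 to 0.17). The signs of Asns, Psat1 and Phgdh turned under other filters or splits, at sizes of no more than 0.08.

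The less abundant genes were measured less closely. Atf5 had 12.1 CPM with and 9.23 CPM without in mutant 1, and 13.7 CPM with and 12.4 CPM without in mutant 2, at 0.25 (95% interval 0.01 to 0.48, adjusted p = 0.109). It was higher with a Cdkn1a UMI in both libraries and was not called. Slc7a11 had 4.31 CPM with and 6.58 CPM without in mutant 1, and 6.37 CPM with and 6.86 CPM without in mutant 2, at -0.30 (95% interval -0.62 to 0.03, adjusted p = 0.176). With no filter on low counts it was called lower, at -0.39 (adjusted p = 0.047), in a setting that also called more of all genes, as given below under processing. Ddit3 had 6.00 CPM with and 5.19 CPM without in mutant 1, and 5.32 CPM with and 5.66 CPM without in mutant 2, at 0.04 (95% interval -0.30 to 0.38). Trib3 had 3 UMIs with and 27 without in mutant 1, and 10 with and 30 without in mutant 2. Chac1 had 1 UMI with and 22 without in mutant 1, and 2 with and 11 without in mutant 2.

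Among the sensors and feedback genes, 5 of 15 were higher with a Cdkn1a UMI and 3 lower, where 1526 of all 10227 genes were higher and 1338 lower. Sesn2 had 44.0 CPM with and 5.36 CPM without in mutant 1, and 43.9 CPM with and 5.23 CPM without in mutant 2, at 3.05 (95% interval 2.86 to 3.25), and it is on the list of p53 targets as well. Ddit4 had 80.7 CPM with and 21.8 CPM without in mutant 1, and 57.1 CPM with and 4.64 CPM without in mutant 2, at 2.70 (95% interval 2.54 to 2.86). Atf3, for a stress factor also induced by dissociation, had 11.5 CPM with and 2.33 CPM without in mutant 1, and 7.71 CPM with and 2.23 CPM without in mutant 2, at 2.02. Cells without a Cdkn1a UMI lay under the filter of 5 CPM, so Atf3 was tested only through the cells with a UMI. Its value is a description, also in the count of higher genes. Sesn2 had like values in both libraries, while Ddit4 was higher in mutant 1 in both kinds of cell. Eif4ebp1 (0.47) and Eif2ak3 (0.51), which encodes the sensor PERK, were higher by less, and Gpt2 (-0.42), Nck1 (-0.17) and Ppp1r15b (-0.21) were lower. Immediate early genes were higher too, 5 of 9 with 0 lower (Egr1 (1.60), Fos (1.53) and Jun (1.04)), and their part in these values was not tested.

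Amino acid supply genes were set beside all 10227 genes of the split, of which 1526 were called higher and 1338 lower. Of 16 aminoacyl-tRNA synthetases 0 were higher and 1, Aars (-0.32), was lower, with a median of -0.04. Amino acid transporters had 1 higher and 4 lower of 9, with a median of -0.17. Serine and one-carbon genes had Mthfd1 (0.55), Cth (0.35) and Tyms (0.21) higher and Gldc (-0.23) lower, of 10. The unfolded protein response list had 0 higher and 7 lower of 16 with a median of -0.18, led by Sdf2l1 (-0.34), Hyou1 (-0.32) and Xbp1 (-0.29).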

How the data were processed

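UMI counts per gene and barcode were used as the authors deposited them, raw and whole, for 2 mutant libraries and 1 control library. Per the submitters' processing notes Cell Ranger 7.0.0, Seurat 4.0.0 and mm10 were used; the sources used here do not give the annotation or how introns were handled. Matrix totals were 178159788 UMIs in mutant 1, 225032823 in mutant 2 and 202581488 in control 1. Barcodes with 500 genes or more and under 10% mitochondrial UMIs were kept, without Scrublet doublets (96, 122 and 41), which left 3590, 4684 and 4048 cells. A cell entered a class with at least 50% of its markers detected and any other list at no more than 50% of that share. Haemoglobins were left out of the erythroid gate. Cells that this rule left over became flank cells with at least 4 flank markers and a flank share above 50% of their limb mesenchyme share. Such cells also had under 33% of the ectoderm, endothelium, erythroid, macrophage and megakaryocyte markers. The gates were set after seeing the data.

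UMIs summed per library and class were tested with edgeR 4.0.16 (quasi-likelihood, TMM) over genes with a mean of 5 CPM or more. Fits of mutant against control, the interaction and the split had 1 residual degree of freedom, and class levels 8. Alternatives were DESeq2 1.42.0, limma-voom 3.58.1 and other filters, gates and scales. Poisson and exact Clopper-Pearson 95% intervals cover counting error only. The fits were tested on simulated counts. The text names all 9 genes and, from each list, the called genes or, where more than 3 were called in a direction, those with the lowest p; some genes that this rule or the likeness search picked are not reported here. The 9 genes and the lists were chosen with earlier results of these data known.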

Additional observations from a re-analysis of the deposited data

Results flagged for a closer look

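Changes of 3 of the genes between mutant and control ran in opposite directions in different classes, with both mutants on the same side of the control each time. Ddit3 had log2 folds of 0.079 in mesenchyme and 0.82 in ectoderm, where both mutants were higher, and -0.41 in flank, where both were lower. In ectoderm and in mesenchyme Ddit3 was tested only because the mutants were higher, so those values are descriptions. Asns had -0.38 in mesenchyme, -0.81 in ectoderm, -0.38 in endothelium and -0.38 in flank, and 0.064 in erythroid cells. Phgdh had -0.28 in mesenchyme, -0.65 in ectoderm and -0.38 in endothelium, and 0.23 in erythroid cells. These differences between classes were not tested, apart from mesenchyme against ectoderm, where that of Ddit3 is a description. Of these changes 0 was called by edgeR.

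In the test of mesenchyme against ectoderm, genes of the lists whose change differed were Gldc (1.63, adjusted p = 3.13e-05, edgeR), Cdkn1a (5.08), Ddit4l (5.81), Ccng1 (3.04) and Sesn2 (1.91), all more positive in mesenchyme, and the immediate early genes Jun (-1.93) and Fosb (-2.23), more positive in ectoderm. In cells outside every gate, Psat1 had 78.4, 91.9 and 62.7 CPM in mutant 1, mutant 2 and control 1, so both mutants were above the control. Others of the genes ran the other way there, with 8.31, 5.43 and 14.6 CPM of Slc7a11, 40.9, 39.1 and 51.3 CPM of Asns and 113, 141 and 159 CPM of Phgdh in the same order of libraries. These cells had a median depth of 3653, 13053.5 and 1738 UMIs in mutant 1, mutant 2 and control 1, their makeup is not known, and the part of both in these values was not tested. Groups were too small for a search for outlying libraries.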

How the results depend on the processing

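No paired analysis was possible because the control and the mutants share only the number 1, which for the control comes from accession order. Across settings 1001 values of single genes were counted as the same. Where a setting gave a test, these kept their direction and side of the threshold. Mutant against control and the split had no test once a mutant library was left out. There, the same meant a move smaller than the spread between the mutants, whichever sign an uncalled value took. Of the rest, 31 changed sign, 10 lost a call, 6 gained one and 3 moved by more than the spread, and the cause of these changes was not tested.

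Calls of mutant against control in mesenchyme numbered 61 with DESeq2, 383 with a mean of 1 CPM, 663 with no filter, 227 with a mitochondrial share under 5%, 27 in one fit over all classes, 0 with the prior degrees of freedom of the ectoderm fit and 56 without cells with a Cdkn1a UMI. DESeq2 called 23 genes in ectoderm, 46 in endothelium, 22 in erythroid cells, 1 in flank, 44 in the interaction and 1154 in the split. With no filter there were 481 in ectoderm (3 of the 9 genes), 238 in erythroid cells, 10 in flank, 249 in the interaction (259 at a mean of 1 CPM) and 4391 in the split (1 of the 9). One fit over all classes called 1 in erythroid cells and 2 in flank. The prior degrees of freedom of the ectoderm fit, chosen for the split after seeing the data, left 911. Leaving out 1 library gave 2425 to 2907 calls and 3 to 5 of the 9 in flank against mesenchyme. With no thinning, the share of cells with a UMI was lower in both mutants for 2 of the 9 genes in mesenchyme (4 when thinned), 7 in ectoderm (4) and 6 in erythroid cells (2).

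Signs turned in the split, all without a call: Asns -6.454e-04, Phgdh -0.011 and Psat1 -0.028 at 2 Cdkn1a UMIs or more; Psat1 -0.011 at a mean of 1 CPM; Asns -0.031, Ddit3 -0.053, Phgdh -0.052 and Psat1 -0.076 with no filter; Ddit3 -0.187, Phgdh -0.041 and Psat1 -0.047 split after thinning; Psat1 -4.127e-05 with the stricter gate. In ectoderm against mesenchyme Atf5 was 0.005914 with limma-voom, 0.025 with a mitochondrial share under 20%, and 0.074 and 0.075 with no scaling factors, all and non-haemoglobin UMIs, chosen after seeing the data. Leaving out 1 library gave -0.136 to 0.053 for Atf5, -0.057 to 0.633 for Trib3 and -0.040 to 0.369 for Ddit3 there, and in endothelium -0.012 to 0.053 for Asns and -0.005563 to 0.136 for Atf4. In endothelium Asns was also -0.041 with a mitochondrial share under 5%, and with no scaling factors -0.141 and -0.141, and Atf4 -0.082 and -0.082. In erythroid cells Phgdh was -0.559 and Psat1 -0.494 with no scaling factors; in one fit over all classes mutant against control was 0.020 for Atf4 and 0.004261 for Psat1.

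The stricter gate was not run for flank or for class levels, where it left as few as 37 cells. Depth limits Chac1 everywhere and Trib3 outside erythroid cells.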

Other observations

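Glutathione genes are close to Slc7a11 and Chac1 in function. In erythroid cells 6 of 9 were higher than in mesenchyme and 2 lower, where 39.3% and 42.2% of all genes were, with Gclm, for the regulatory subunit of the enzyme that starts glutathione synthesis, at 4.36 and Hmox1, for heme oxygenase, at -4.11 on the TMM scale. In endothelium 6 of 9 were higher and 0 lower, where 32.6% and 32.2% of all genes were. In mutant mesenchyme Hmox1 had 14.0 CPM with and 6.46 CPM without in mutant 1, and 15.8 CPM with and 6.91 CPM without in mutant 2, split by a Cdkn1a UMI, a log2 fold of 1.16 (adjusted p = 1.57e-17, edgeR).

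Barcodes that passed the mesenchyme gate with a mitochondrial share of 10% or more entered no comparison. In mutant 1, mutant 2 and control 1 they held 19.3, 20.9 and 17.9 CPM of Asns, 24.7, 29.6 and 24.3 CPM of Psat1 and 8.64, 11.9 and 5.68 CPM of Slc7a11, with no scaling factors.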
